A study of Mus musculus with 12 samples.

Results

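Wild-type brain was compared with wild-type liver by total RNA sequencing, and the genes of each tissue were described as most abundant, exclusive to 1 tissue or shared. The members were the 3 brain libraries and the 3 liver libraries whose titles name the control mice flx and whose genotype label is wild-type, chosen by their column labels. They make up 6 of the 12 libraries of the series. The other 6 came from brain and liver of mice lacking Vaultrc5, the gene of a small vault RNA, and were used here only to count the gene sets again and in an alternative fit of all 12 libraries. All mice were male and 7 to 9 weeks old, and the extraction protocol gives the control genotype as Vaultrc5+/+. The labels do not explain flx, and they name neither a strain, a brain region nor a liver lobe. Nothing in the labels says that replicates are separate animals, so p-values measure the spread between these libraries. In bulk tissue, fewer cells of a type and less RNA per cell cannot be told apart, and this holds for every tissue difference below.

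The brain is built from neurons, which signal through synapses and action potentials, and from glia: astrocytes that clear transmitter and buffer ions, oligodendrocytes that wrap axons in myelin, and microglia. Most of the liver's mass is hepatocytes, which secrete plasma proteins, make bile acids and urea, release glucose during fasting and detoxify foreign compounds. Kupffer cells, sinusoidal endothelium and stellate cells fill the rest. Genes for translation, protein breakdown, respiration and the cytoskeleton run in both tissues.

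A brain library held 16557831 to 18567381 counts and a liver library 23659870 to 27155480, and 24979 to 25259 genes had a count in a brain library against 20908 to 21232 in a liver library. A gene at 3 counts, the floor used here, lay on average at 0.130 CPM in brain and 0.160 CPM in liver, where CPM are counts per 1000000 of the library size after TMM (trimmed mean of M-values) scaling over the 6 libraries. Floors cover counting error only. The tissue labels held against marker genes: all 8 neuron markers were higher in brain and all 7 hepatocyte markers higher in liver. Of all tested genes, 43.9% were higher in brain and 34.7% in liver. The hepatocyte marker Ttr, also a choroid plexus marker here, lost its call under some alternatives given below. Brain replicate 2 stood apart from the other brain libraries. Genes of cerebellar neurons were near 0 in it, with Fat2 at 638, 1.45 and 122 CPM in replicates 1, 2 and 3 and Gabra6, a GABA receptor subunit of cerebellar granule cells, at 3624, 3 and 831 counts. The choroid plexus gene Ttr was at 3656, 5 and 7116 counts. Forebrain genes were highest in the same library, with Camk2a, a synaptic kinase, at 1012, 2241 and 1185 CPM. These region genes were chosen after their values were seen, and what was dissected for each library was not tested.

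Of 18850 genes tested, 14817 differed between the tissues (78.6%), of which 8275 were higher in brain (43.9%) and 6542 in liver (34.7%), by edgeR's quasi-likelihood test at a Benjamini-Hochberg adjusted p of 0.05. "Higher" below means past that threshold unless a gene belongs to a set defined by its levels, where no test applies. Differences are on a log2 scale, brain minus liver, with the standard error (SE) of the fit. The median over all tested genes was 0.21, with quartiles of -1.06 and 2.47, and 11657 genes were past the threshold with a difference of at least 1. Scaling by DESeq2 size factors gave 8260 genes higher in brain and 6545 in liver, and upper-quartile factors 8324 and 6479, near the counts with TMM factors. With library totals, which correct for no difference in composition, differences moved toward brain, the median by 0.84 to 1.05, and those of genes at the floor in 1 tissue by less. Calls toward brain then numbered 11635 and calls toward liver 3998, so that 74.4% of calls pointed to brain in place of 55.8%. Differences toward brain and large differences toward liver keep their direction under such a shift, while differences toward liver of under about 1 can turn. The scatter of gene levels shows both tissue-exclusive sets as bands at the floor of the other tissue and the shared set along the diagonal.

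**Figure D1:**
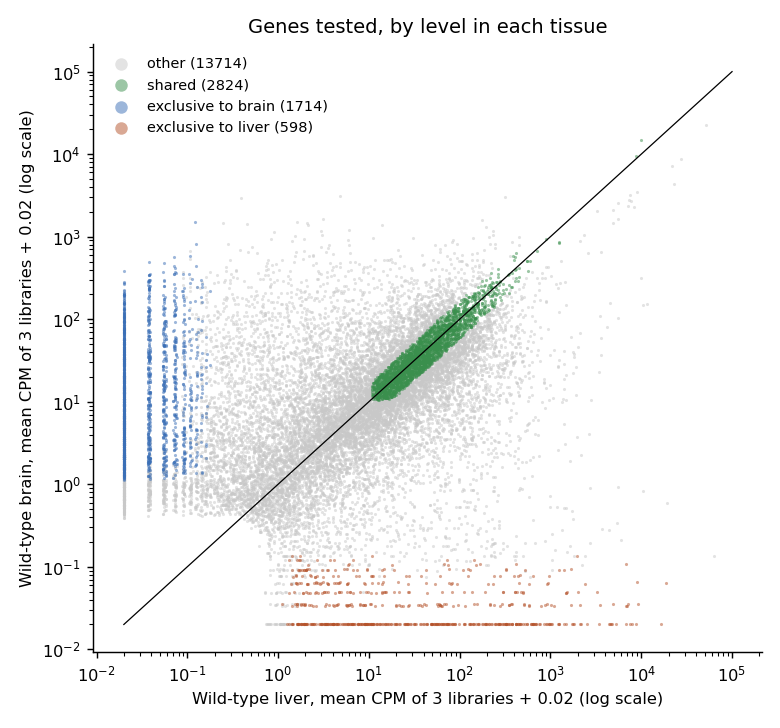
Mean CPM of each tested gene in the 3 wild-type liver libraries (horizontal) and the 3 wild-type brain libraries (vertical), both on log scales after adding 0.02. Colours mark the 1714 genes exclusive to brain, the 598 exclusive to liver and the 2824 shared genes, and the line marks equal levels.

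Liver RNA was concentrated in few genes and brain RNA was spread over many. TPM are counts per exon length, scaled to 1000000 over nuclear protein-coding genes, and serve here for ranks and shares within a tissue. To reach 50% of TPM, 59, 42 and 62 genes sufficed in liver replicates 1, 2 and 3, against 1458, 1220 and 1354 in brain. The 15 most abundant genes of a library took 32.4% to 36.3% of TPM in liver and 3.36% to 4.08% in brain. The groups did not overlap on either measure. At 1 TPM or more there were 11510 to 11669 genes in liver and 14287 to 14656 in brain.

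**Figure D2:**
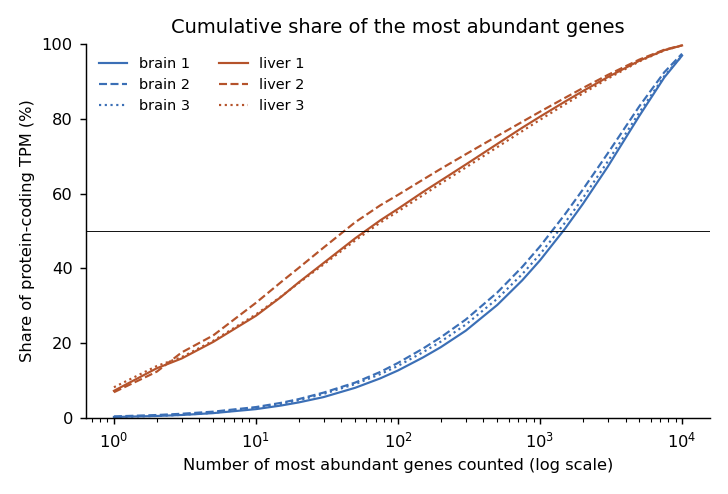
Share of protein-coding TPM (vertical, percent) taken by the most abundant genes of each library, counted from the top (horizontal, log scale); 1 line per library, brain in blue and liver in red. The horizontal line marks 50%, which liver reached at 42 to 62 genes and brain at 1220 to 1458.

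The most abundant liver genes encode proteins made for export. Alb, serum albumin, led at 72885, 54808 and 82467 TPM in replicates 1, 2 and 3, with at most 5 counts in any brain library. The major urinary proteins, lipocalins that carry pheromones into male urine, filled 6 of the 15 places: Mup22 at 56144 ± 4337 TPM (SD, n = 3), Mup7 at 39790.3 ± 25437, Mup3 at 21773, Mup20 at 19079, Mup14 at 12514 and Mup19 at 11301. Their spread between libraries differed: Mup7 was at 26235, 69134 and 24002 TPM in replicates 1, 2 and 3 and Mup22 at 60221, 51587 and 56625. Liver replicate 2 held the highest value of each except Mup22. Lipoprotein genes followed with Apoa2 at 20969 ± 2800.4 TPM, Apoa1 at 12543 ± 1309 and Apoe at 12096 ± 1063, the protein parts of high-density and remnant particles. The protease inhibitor genes Serpina1e (14422 TPM), Serpina1c (14270.3) and Serpina3k (10814), the thyroid hormone carrier Ttr (9766) and the fetuin gene Ahsg (8335) completed the list. All 15 encode secreted proteins. Values of single Mup and Serpina1 genes are uncertain, because the deposited counts of 20 of 22 Mup genes and 5 of 6 Serpina1 genes held fractions, as shared reads give. Summed over the family, the Mup genes reached 59490, 105481 and 51970 CPM, or 18.02% ± 5.53 of liver TPM, and the Serpina1 genes 29083, 31922 and 26453 CPM.

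The most abundant brain genes encode calcium sensors, ion pumps and general cell proteins, and no gene reached the level of the leading liver genes. Calm2 and Calm3, which encode the calcium sensor calmodulin, stood at 3179 ± 441 and 2494 ± 262 TPM. Nrgn, neurogranin, which binds calmodulin in dendrites, was at 2079, 4577 and 2487 TPM and highest in replicate 2. Atp1b1, the beta subunit of a sodium pump, which restores the gradients spent in firing, was at 2373 ± 167 TPM. Astrocyte products were represented by Sparcl1 (2678 TPM), a secreted synapse-forming protein, and Glul (2146 TPM), glutamine synthetase. Cpe (2095 TPM) trims neuropeptides, Psap (1987 TPM) yields lysosomal saposins and Selenow (2006 TPM) is a small selenoprotein. Actb (2734 TPM), Ubb (2651), Eef1a1 (2230.2) and Eef1a2 (1981) encode actin, ubiquitin and the elongation factors that bring tRNA to the ribosome. Without brain replicate 2, 14 of the 15 stayed and Selenow left the list. Several of the 15 were also abundant in liver, among them Actb, Eef1a1 and Glul. Glul was at 747, 889 and 879.5 CPM in brain and 1367, 1137 and 1233 in liver (-0.57 ± 0.14), and that direction reverses under library totals (0.27).

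**Figure D3:**
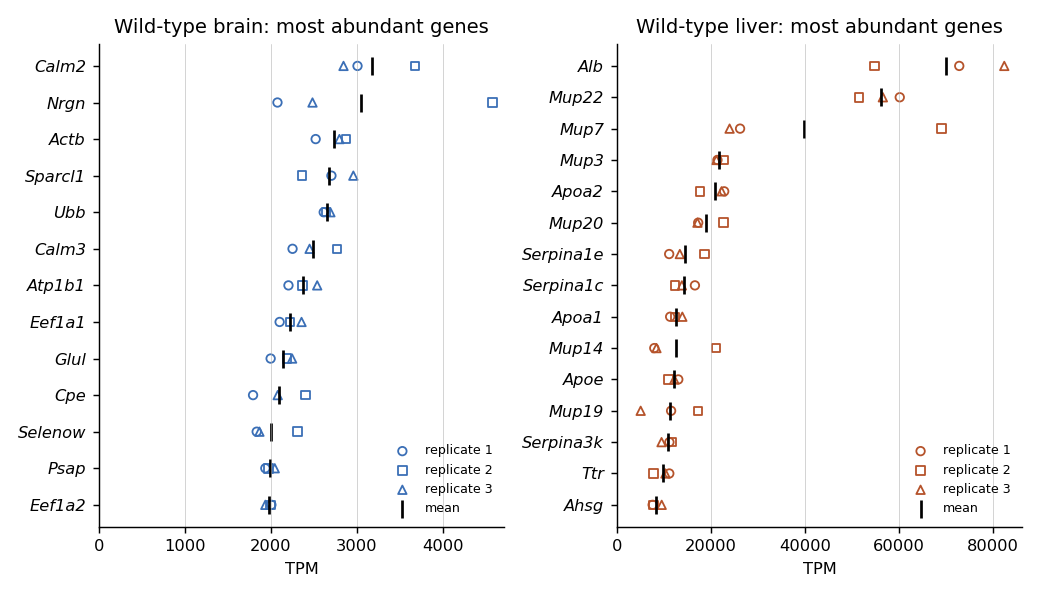
TPM (horizontal) of genes among the 15 most abundant nuclear protein-coding genes in wild-type brain (left, 13 genes) and wild-type liver (right, 15 genes); marks are the 3 libraries and the bar is their mean. The scales differ: Alb averaged 70053 TPM and Calm2 3179.

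A gene was called exclusive to a tissue when it had at least 1 CPM in all 3 of its libraries and at most 3 counts in each library of the other tissue. Brain had 1714 such genes, 1104 of them protein-coding, 206 long non-coding and 345 of the unconfirmed class that the annotation marks TEC. Liver had 598, of which 423 were protein-coding, 107 long non-coding and 15 TEC. In the other tissue, 909 of the brain set and 309 of the liver set had no count in any library. At 10 CPM or more lay 834 of the brain set and 347 of the liver set, and at 100 CPM or more 169 and 182. The liver set, though smaller, took 18.8% ± 2.26 of all counts in liver and 38.1% ± 5.00 of protein-coding TPM (SD, n = 3). The brain set took 8.27% ± 0.505 of counts and 9.33% ± 0.434 of TPM in brain. These levels define the sets and are given without a test. At the limit, 144 brain genes and 55 liver genes had a highest count of exactly 3 in the other tissue, the most abundant being Snap25 and Mup22. Just outside, at a highest count of 4, were 78 and 55 genes, led by Cplx1 (1445 TPM in brain), a clamp of vesicle fusion, and Apoc1 (7617 TPM in liver), a lipoprotein component.

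The same rule was applied to the knockout libraries, which had no part in choosing the sets. There, 1444 of the 1714 brain genes (84.2%) and 483 of the 598 liver genes (80.8%) met it again. These were 86.2% of the 1676 genes exclusive to knockout brain and 83.0% of the 582 exclusive to knockout liver. Leaving out a library loosens the rule, and the brain set held 1762 to 1846 genes without any 1 library. The upper value was reached without brain replicate 2. Among the 132 genes gained there, 78 were protein-coding and included the cerebellar genes Gabra6, Pcp2 and En2, which this library held at 3, 1 and 4 counts.

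The 15 most abundant brain-exclusive protein-coding genes were almost all neuronal. At the synapse were Snap25, the SNARE protein that fuses vesicles with the membrane, with 1399, 1669 and 1443 CPM in brain and 0, 3 and 3 counts in liver, and Slc17a7, which loads vesicles with glutamate, with 469, 797 and 468 CPM and 0, 2 and 3 counts. The mean over the brain libraries was at least 9414-fold and 3618-fold higher than in liver, set at its floor, for these genes. Cytoskeletal members were Stmn3, a tubulin-binding stathmin (1146 ± 46.8 TPM), Tubb3, the neuronal beta-tubulin (653 ± 82.8 TPM), and Nefl, the light neurofilament chain (701 ± 266 TPM), all with 0 counts in every liver library. Eef1a2 was the most abundant of the set at 1981 ± 37.4 TPM. Vsnl1, a calcium sensor, Sncb, beta-synuclein, Ddn, the dendritic protein dendrin, and Uchl1, a ubiquitin hydrolase, followed at 1335, 904, 850.1 and 729 TPM. Cck, cholecystokinin, made by cortical neurons, was at 66.8, 139 and 70.8 CPM. Cck and Ddn were both highest in brain replicate 2. Pcsk1n, a proprotein convertase inhibitor (737 TPM), Ppp2r2c, a phosphatase subunit (660.2), Sult4a1, a sulfotransferase family member (566), and Nrsn1, a vesicle protein of neurons (545), made up the rest.

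Apart from Cyp2e1 and Fabp1, the 15 most abundant liver-exclusive genes encode secreted proteins. Besides the 6 urinary protein genes and the 5 Serpina1 and Serpina3k genes they held Ahsg and Gc, the vitamin D carrier, with 4690.3, 4563 and 4577 CPM in liver and 0 counts in every brain library. Cyp2e1, which oxidises ethanol and many small molecules, was at 6806, 5992 and 7407 CPM against 3, 2 and 1 counts in brain. Fabp1, the fatty acid carrier of the hepatocyte cytosol, was at 1488, 1512 and 1463 CPM and at 0 counts in brain. The mean over the liver libraries was at least 35585-fold, 51985-fold and 11484-fold higher than in brain, set at its floor, for these 3 genes.

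Many large gene families lay mostly on the side of 1 tissue, and some did not. These families were chosen after the values were seen. Members exclusive to a tissue passed the count filter only through that tissue, so their direction was fixed in advance. In brain, 60 of 66 tested potassium channel genes were higher and 33 were exclusive to it. All 33 tested subunits of voltage-gated sodium and calcium channels (of 40 annotated) were higher in brain, with 15 exclusive. So were all tested glutamate receptor genes (24 of 26 annotated) and GABA and glycine receptor subunits (16 of 24), with 14 and 12 exclusive. Of 68 tested protocadherin genes, adhesion proteins of neurons, 66 were higher in brain and 23 exclusive. In liver, 54 of 62 tested cytochrome P450 genes were higher and 33 exclusive, while 6 were higher in brain, among them Cyp46a1, which hydroxylates brain cholesterol. All 18 tested glucuronosyltransferase genes (of 21 annotated) and all 14 tested carboxylesterase genes (of 19) were higher in liver, with 12 and 13 exclusive. All 20 tested Mup genes were higher in liver and 19 were exclusive. The zinc finger genes named Zfp, the largest family, ran more often toward brain. There, 188 of 365 tested were higher in brain, 58 higher in liver and 72 in the shared set. Transporters of organic anions and cations were mixed, with 9 of 24 higher in brain and 12 in liver. Of all tested genes, 43.9% passed toward brain and 34.7% toward liver.

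The exclusive sets also differed in gene size and position, which the rule did not use. Brain-exclusive genes had a median genomic span of 35.7 kb (quartiles 10.2 and 143), liver-exclusive genes 15.1 kb (6.38 and 28.9), shared genes 30.9 kb and all tested genes 25.2 kb. The median exon length was 4391.5 bases in the brain set, 2284 in the liver set and 4466.5 over all tested genes. The nearest protein-coding gene on at least 1 side belonged to the same set for 158 of 423 liver-exclusive genes (37.4%), 233 of 1104 brain-exclusive genes (21.1%) and 925 of 2782 shared genes (33.2%). The sets make up 1.93%, 5.03% and 12.7% of protein-coding genes, and since either side counts, these shares of single genes are not the value to expect. No test was made of these descriptions.

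Long non-coding RNAs took 5.50% ± 0.428 of counts in brain and 3.86% ± 0.189 in liver (SD, n = 3). The groups did not overlap, and the two-sided exact permutation test gave p = 0.1, the smallest that 3 against 3 allows (0.12 after adjustment over 6 classes). Malat1, a nuclear RNA of speckles, led in brain at 16619, 13977 and 14169.9 CPM and stood at 9897, 10548 and 9731 in liver. Its difference of 0.57 ± 0.17 passed the test in the main comparison and lost its call without liver replicate 1 (0.54) or 3 (0.53). Meg3, an imprinted RNA, was at 2821, 3310.0 and 3091 CPM in brain and 5.63, 4.57 and 4.22 in liver, and C230004F18Rik at 4112, 2219 and 2424 against 0.228, 0.0502 and 0.843. Both were higher in brain by 9.32 ± 0.22 and 12.91 ± 0.71. Neat1, the scaffold of paraspeckles, ran the other way, with 91.9, 56.1 and 94.7 CPM in brain and 3628, 5593 and 3423 in liver (-5.70 ± 0.33). Gm26917 and Gm42418 were also among the 5 most abundant of both tissues. Miat was the most abundant brain-exclusive non-coding gene at 204, 391 and 285 CPM, and AC157910.3 the most abundant liver-exclusive one at 481, 494 and 238 CPM.

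Some exclusive genes contain microRNA hairpins on their own strand. MicroRNAs are short RNAs that bind target messages through the seed, bases 2 to 8. Mature microRNAs were not measured by these libraries, and only the level of the surrounding gene is reported. Of the 1714 brain-exclusive genes, 45 (2.63%) contained at least 1 of the RefSeq hairpins (61 hairpins in all), against 4 of the 598 liver-exclusive genes (0.669%, 5 hairpins) and 2.92% of all tested genes. The brain share is thus near that of all genes. All 3 loci of miR-9 lie in brain-exclusive long non-coding genes: Mir9-1 in Gm3764 at 60.9, 45.7 and 45.3 CPM, Mir9-2 in C130071C03Rik at 64.9, 59.7 and 46.6 CPM, and Mir9-3 in Mir9-3hg at 21.4, 20.1 and 15.3 CPM, each with 0 counts in every liver library. Mir128-2 lies in Arpp21, a neuronal phosphoprotein gene at 326, 489 and 316 CPM in brain and 0, 2 and 0 counts in liver. Mir204 lies in Trpm3, a channel gene at 258, 69.0 and 188 CPM and lowest in brain replicate 2. Mir132 and Mir212 lie together in 1700016P03Rik, at 2.65, 4.85 and 2.21 CPM. In liver, Mir199a-2 and Mir214 lie in Dnm3os, at 2.67, 2.91 and 2.27 CPM and 3, 0 and 0 counts in brain. Dnm3os lies antisense to another gene, and whether the counting used strand is not given in the sources used here, so its reads may belong to either. These microRNAs were picked after the values were seen. Their mature forms are shown 5′ to 3′ from RefSeq on GRCm38.p6 with the seed in capitals, because the 3 miR-9 loci give 1 mature sequence and miR-132 and miR-212 share 1 seed.
mmu-miR-9-5p (chr3:88215613-88215635, plus strand; identical at chr13:83738821-83738843 and chr7:79505279-79505301, both plus): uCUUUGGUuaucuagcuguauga
mmu-miR-128-3p (chr9:112118644-112118664, minus strand): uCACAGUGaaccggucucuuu
mmu-miR-204-5p (chr19:22750610-22750631, plus strand): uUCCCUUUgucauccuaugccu
mmu-miR-132-3p (chr11:75173723-75173744, plus strand): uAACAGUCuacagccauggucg
mmu-miR-212-3p (chr11:75173443-75173464, plus strand): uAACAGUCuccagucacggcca
mmu-miR-199a-3p (chr1:162217883-162217904, plus strand): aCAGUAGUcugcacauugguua
mmu-miR-214-3p (chr1:162223438-162223459, plus strand): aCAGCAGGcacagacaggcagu

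Functional lists of brain genes were higher in brain nearly throughout, against 43.9% of all tested genes. The lists were picked as genes of known brain functions with earlier results of these data known, so their direction is no independent evidence. The counts were 24 of 24 for the neuronal cytoskeleton and axon growth, 25 of 25 for synaptic vesicle release, 20 of 20 for glutamate receptors and their scaffold, 20 of 20 for voltage-gated channels and 20 of 20 for neural transcription factors. List medians were 9.90, 7.98, 9.46, 10.02 and 11.40 as fitted, against 0.21 over all tested genes. With members at the liver floor set to their lower bound they were 9.11, 7.98, 9.27, 9.64 and 7.66. Without brain replicate 2 these counts were the same except for the cytoskeleton, at 23 of 24. Kif5a, a motor of axonal transport, was at 1101, 1584 and 1413 CPM in brain and 2.39, 1.81 and 2.21 in liver (9.32 ± 0.25), and Tubb4a, a brain tubulin, at 405, 353 and 463 against 0.683, 0.853 and 0.738 (9.05 ± 0.20). Among release genes, Vamp2, the vesicle SNARE, was at 526, 747 and 529.8 CPM against 34.1, 35.2 and 44.8 (3.98 ± 0.20), and Cplx2 at 729, 867 and 675 against 2.05, 3.96 and 2.90 (7.98 ± 0.28). None of these brain and liver groups overlapped, in a comparison where 78.6% of all tested genes differed. Camk2a, the kinase abundant in the postsynaptic density, was at 0.0569, 0.201 and 0.422 CPM in liver (12.62 ± 0.60), and Shank1, a scaffold of the same site, at 774, 1249 and 795 CPM in brain and 1.02, 0.652 and 0.791 in liver (10.16 ± 0.33). Of the transcription factors, Mef2c was at 333, 703 and 358 CPM, Neurod2 at 83.5, 71.1 and 54.8, Neurod1 at 124, 9.99 and 32.8 and Zic1 at 316, 9.33 and 83.5. Neurod1 and Zic1, which cerebellar granule neurons express, were lowest in brain replicate 2 and also passed the test without it.

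The lists of inhibitory transmission, myelin and astrocyte functions held members that ran toward liver. Of 20 genes of inhibitory transmission, 18 were higher in brain. Gabbr1, a GABA-B receptor subunit, was at 455, 551 and 482 CPM against 5.97, 7.43 and 5.32 (6.31 ± 0.18). Abat, which breaks GABA down in mitochondria, was higher in liver at 595, 517 and 433 CPM against 177, 149.7 and 232 (-1.47 ± 0.20). Gphn was also higher in liver (-1.20 ± 0.11); it anchors inhibitory receptors and also makes molybdenum cofactor. Of 15 myelin genes, 14 were higher in brain. Mbp, which compacts the myelin sheath, was at 1243, 742 and 2540.4 CPM, highest in replicate 3 and lowest in replicate 2, against at most 2 CPM in liver. Qdpr, which recycles the biopterin cofactor, was the exception (-1.95 ± 0.29), with 50.7, 40.8 and 86.3 CPM in brain and 283, 212 and 194 in liver. The astrocyte list was mixed, with 12 of 18 higher in brain, 4 higher in liver and 2 not past the threshold, and 13 higher in brain without replicate 2. Slc1a2, the main glutamate transporter, was at 2452, 3737 and 2957 CPM in brain and 329, 276 and 339 in liver (3.28 ± 0.21). Aldh1l1, a folate enzyme often used to mark astrocytes, was 31.6, 31.1 and 32.2 CPM in brain and 1544, 1019 and 1125 in liver (-5.28 ± 0.21). Clu, a secreted chaperone (-2.37 ± 0.14), and Ndrg2 (-2.19 ± 0.13) were likewise higher in liver, as was Glul, whose direction reverses under library totals (0.27).

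**Figure D4:**
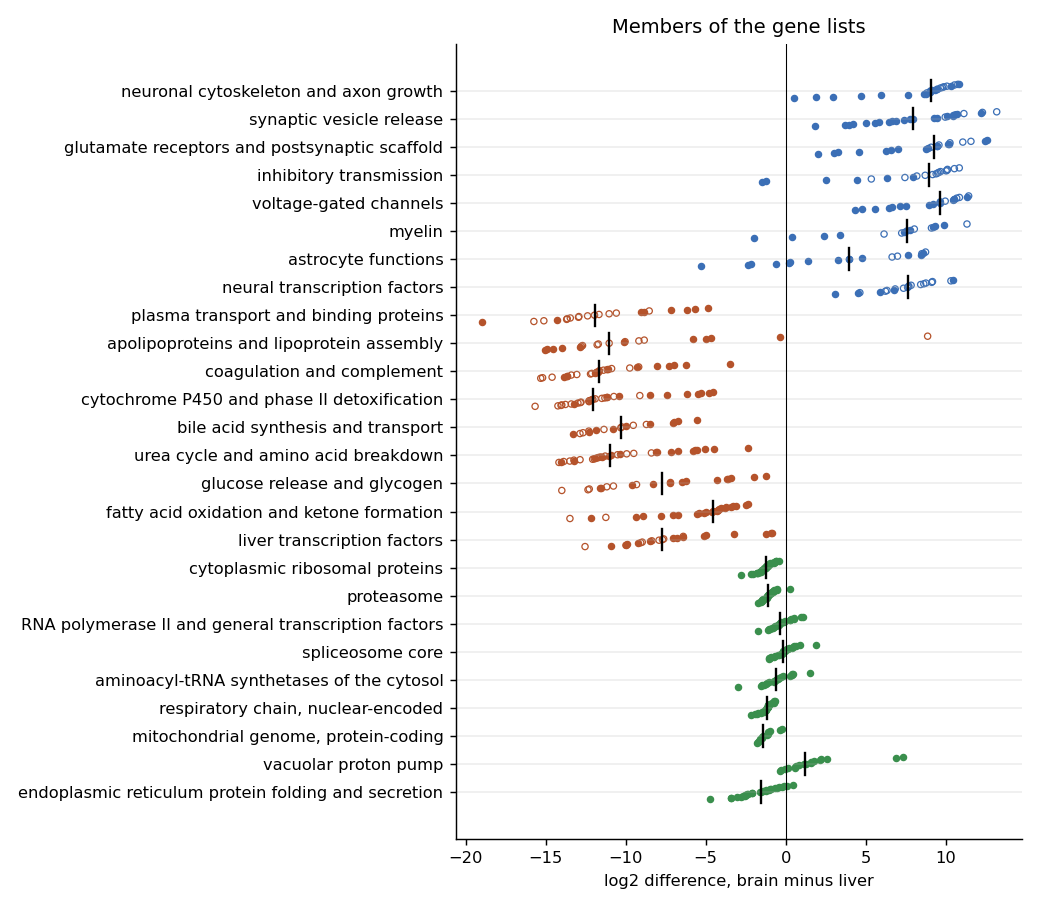
Log2 difference (brain minus liver, horizontal) of each member of the 26 gene lists; open circles are members at or below 3 counts in every library of the lower tissue, drawn at their lower bound, and bars are list medians of the points drawn. Most members of lists named for brain lie right of 0, nearly all members of those named for liver left of 0, and the lists of common cell machinery nearer to 0.

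In 8 of the 9 lists of liver functions every member was higher in liver, against 34.7% of all tested genes. These lists were picked in the same way, so their direction is no independent evidence either. The counts were 21 of 21 plasma transport proteins, 27 of 27 coagulation and complement genes, 31 of 31 cytochrome P450 and conjugation genes, 18 of 18 bile acid genes, 32 of 32 urea cycle and amino acid genes, 20 of 20 glucose release and glycogen genes, 26 of 26 fat oxidation and ketone genes and 23 of 23 liver transcription factors. Leaving out brain replicate 2 changed none of these counts, and library totals lowered those of glucose release and transcription factors to 19 and 20. The medians with members at the brain floor set to their bound were -11.95, -11.67, -12.05, -10.27, -10.98, -7.74, -4.56 and -7.70, and as fitted -15.37, -13.72, -15.61, -12.26, -11.97, -7.74, -4.56 and -9.25. Of the fibrinogen chains that form clots, Fga was at 5206, 5568 and 5056 CPM in liver and 0 counts in brain, and C3, the central complement protein, at 10151, 10948 and 10061 CPM against 0.314, 0.166 and 1.95 (-13.64 ± 0.90). Trf, transferrin, was at 10486, 10403 and 10826 CPM in liver and 145, 60.7 and 236 in brain, where oligodendrocytes and choroid plexus make it (-6.17 ± 0.53). Ttr was at 5103, 3817 and 4525 CPM in liver and 164, 0.207 and 308 in brain (-4.83 ± 1.63, adjusted p = 0.0282 by edgeR's quasi-likelihood test with Benjamini-Hochberg adjustment). That call was lost without brain replicate 1 (-4.90) or liver replicate 1 (-4.75), with no filter on low counts (-4.81) and in a fit of all 12 libraries (-4.84). Without brain replicate 2, where Ttr was near 0, it was kept (-4.30).

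Metabolic genes of the liver divided into those near 0 in brain and those with a lower level there. Slco1b2 and Slc10a1, which take bile acids up from blood, were at 1736, 1540.4 and 1621 and 759, 552 and 660.0 CPM in liver and at no more than 5 counts in a brain library. Cps1, the entry enzyme of the urea cycle, was at 6371, 4975 and 5009 CPM against 0.493, 0.249 and 0.216 (-14.04 ± 0.37), the largest difference toward liver among called genes above the floor in every library. Ass1, which joins citrulline and aspartate in the same cycle, kept 8.52, 10.8 and 11.8 CPM in brain against 3702, 2189 and 2586 in liver (-8.09 ± 0.31). For glucose release, G6pc was at 484, 755 and 802 CPM and Pck1 at 1046, 2553 and 2749, with at most 1 count in brain. Pck1 and G6pc were both lowest in liver replicate 1. The liver regulators Hnf4a (728, 756 and 835 CPM) and Creb3l3 (251, 276 and 286 CPM) were near 0 in brain, whereas Cebpa (-6.82 ± 0.21) and Cebpb (-5.08 ± 0.31) kept 2 to 5 CPM there.

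The apolipoprotein list gave the exception. Of 19 members, 17 were higher in liver, Pltp did not pass the test (-0.35 ± 0.29) and Apod was higher in brain. Apod, a lipocalin of glia, was at 74.2, 44.4 and 107 CPM in brain and had 0 counts in every liver library, so that its mean was at least 472-fold higher in brain. Apoe, which astrocytes secrete in the brain, was at 313, 307 and 321 CPM in brain and 10776, 9708 and 9639.9 in liver (-5.00 ± 0.17). It ranked among the 15 leading liver genes and still reached 1252 ± 68.3 TPM in brain.

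Shared genes were defined by at least 10 CPM in all 6 libraries and a 95% interval of the difference within 2-fold either way. There were 2824, of which 2782 were protein-coding, and 1382 of them passed the test with a difference inside that bound; the interval rule used the same contrast, so this count is a description beside the 78.6% of all tested genes. They took 23.6% ± 0.600 of protein-coding TPM in brain and 7.46% ± 0.426 in liver. In the knockout libraries, 2553 of the 2824 (90.4%) met the rule again. Under library totals 2365 genes met it, and 1106 of the 2824 (39.2%) were among them, so membership changes with library totals. The most abundant by the lower of both TPM were Actb, Glul, Ubb, the chaperones Hspa8 and Hsp90ab1, the cytochrome oxidase subunits Cox8a and Cox4i1, Psap, Gapdh, a glycolytic enzyme, and Bsg, a chaperone of lactate carriers. The ribosomal genes Rpl38 and Rps29, Ywhae, a 14-3-3 adaptor, Ddx5, an RNA helicase, and Ppia, cyclophilin A, completed the 15. Hspa8 was at 788, 1016 and 1011 CPM in brain and 716, 933 and 1034 in liver, and Hsp90ab1 at 437, 559 and 525 against 523, 578 and 542. The ranges of both overlapped between tissues and neither passed the test, while both passed toward brain under library totals (0.91 and 0.73). Cox8a did not pass (-0.21 ± 0.14), but did toward liver without brain replicate 2 (-0.37) and toward brain under library totals (0.63). Gapdh was at 347, 412 and 386 CPM against 599.6, 549 and 552 and Actb at 759.5, 942 and 882 against 1265, 1296 and 1191, without overlap. Their differences of -0.57 and -0.54 became 0.27 and 0.30 under library totals, so neither gene has a direction that holds under both scalings.

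Lists of common cell machinery had medians nearer to 0 than the tissue lists. The counts that follow stand beside 43.9% of all tested genes higher in brain and 34.7% in liver, and the share of the spliceosome list higher in liver is near the latter. Cytoplasmic ribosomal protein genes were higher in liver for 34 of 35 (median -1.24) and proteasome genes for 29 of 30 (median -1.10). Under library totals the medians were -0.40 and -0.26, with 24 and 15 members higher in liver and 1 and 3 in brain. Rplp1, of the ribosomal stalk, was at 70.7, 88.4 and 77.3 CPM in brain and 201, 216 and 230.5 in liver (-1.45 ± 0.12). Nuclear-encoded respiratory chain genes were higher in liver for 30 of 30 (median -1.15, and -0.31 with 20 of 30 under library totals). Atp5b, the catalytic subunit of ATP synthase, was at 429.6, 413 and 457 against 972, 931 and 929.8 CPM (-1.12 ± 0.11), and this gene's call is lost under library totals (-0.28). Protein-coding genes of the mitochondrial genome were higher in liver for 11 of 13 (median -1.40, and -0.56 with 7 of 13), and the mitochondrial genome took 3.22% ± 0.243 of counts in brain and 5.11% ± 0.450 in liver. For RNA polymerase II (4 of 24 higher in brain, 14 in liver), the spliceosome core (6 and 9 of 26) and cytosolic tRNA synthetases (4 and 14 of 20) the medians of -0.36, -0.14 and -0.57 turned to 0.48, 0.69 and 0.26 under library totals. Then 14, 20 and 10 members were higher in brain and 1, 0 and 6 in liver. Without brain replicate 2, the members higher in brain were 3, 3 and 2, and Psmc5, the 1 proteasome gene higher in brain (0.30 ± 0.10), no longer passed, as also without brain replicate 3 (0.18) or any liver library (0.26 to 0.30). Prpf8, the core of the spliceosome, was at 214, 216 and 206 CPM in brain and 416, 419 and 384 in liver, a difference that passed the test (-0.94 ± 0.10) but not under library totals (-0.10). Wars, the tryptophan synthetase, was at 39.8, 45.3 and 46.5 against 16.0, 16.5 and 12.2 (1.55 ± 0.15).

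The medians of a pair of common lists lay on opposite sides under both scalings. The vacuolar proton pump, which acidifies synaptic vesicles and lysosomes, was higher in brain for 14 of 18 genes and higher in liver for 1 (median 1.22, and 2.05 with 18 and 0 under library totals). The exception, Atp6v1g1, gave -0.32 ± 0.10 and turned to 0.51 under library totals. Its widest members were Atp6v1g2 at 177, 262 and 197 CPM in brain against 1.14, 1.71 and 2.42 in liver (6.90 ± 0.30) and Atp6v0e2 at 108, 139 and 121 against 0.967, 0.903 and 0.369 (7.35 ± 0.28), both forms found in neurons. The common proteolipid Atp6v0c differed less (1.15 ± 0.14). Genes of protein folding and secretion in the endoplasmic reticulum were higher in liver for 24 of 28 and in brain for 0 (median -1.56). Under library totals the median was -0.72, with 18 members higher in liver and 6 in brain. P4hb, which forms disulfide bonds, was at 42.1, 37.5 and 47.9 CPM in brain and 1129, 1141 and 1049.9 in liver (-4.70 ± 0.15), and the chaperones Calr and Hsp90b1 gave -2.46 ± 0.13 and -2.42 ± 0.13. No brain library of these 3 genes reached the lowest liver library, in a comparison where 78.6% of all tested genes differed.

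Related genes of 1 reaction or role were set side by side in 36 pairs, picked as known brain and liver forms, so their direction is no independent evidence. The brain form was higher in brain in 34 pairs, against 43.9% of all tested genes, and the liver form higher in liver in 27, against 34.7%. Both held in 25 pairs, and in 22 under library totals. Within a tissue, the brain form held the larger TPM in brain in 33 pairs and the liver form in liver in 35. In glucose handling, Aldoc, an aldolase of brain, was at 449.8, 287 and 418 CPM in brain and 15.4, 11.6 and 15.7 in liver (4.76 ± 0.23). Pkm against Pklr, the pyruvate kinases, held 99.99% ± 0.0165 of their summed TPM in brain and 3.57% ± 0.752 in liver (SD, n = 3). Ldhb against Ldha, the lactate dehydrogenase chains, held 81.3% ± 4.62 and 0.888% ± 0.133. The glucose carriers Slc2a3 and Slc2a2 were as far apart, with Slc2a3 at 77.9, 93.6 and 84.7 CPM in brain and Slc2a2 at 528, 483 and 564 in liver. Pfkp and Pfkl did not run opposite ways: both were higher in brain (5.67 ± 0.17 and 1.25 ± 0.15).

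**Figure D5:**
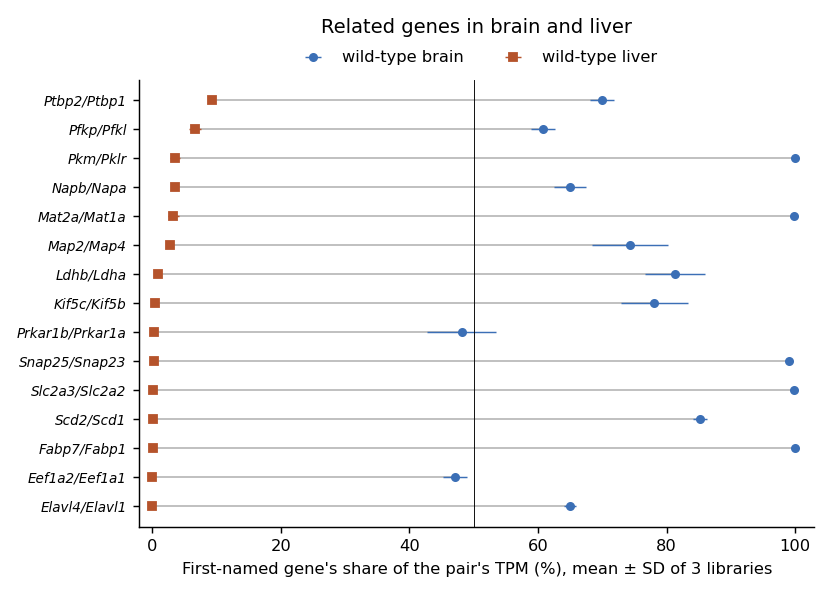
Share of each pair's summed TPM held by the first-named gene (horizontal, percent), as mean ± SD of 3 libraries in wild-type brain (circles) and wild-type liver (squares). Of the 15 pairs drawn, 15 had the first-named gene under 50% in liver and 13 had it over 50% in brain.

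The lipid pairs Scd2 and Scd1 and Fabp7 and Fabp1 also had opposite calls, and the methionine pair Mat2a and Mat1a did not. Scd2 and Scd1, desaturases that lie near each other on GRCm38 (chromosome 19, 44293674 to 44306864 and 44394455 to 44407879), were at 914, 783 and 1219.9 and 136, 114 and 209 CPM in brain and at 12.8, 11.1 and 9.64 and 15038, 8847 and 10510.5 in liver. Their counts held fractions in all 6 libraries, so some reads may be shared. Fabp7 of glia was at 11.3, 7.22 and 9.90 CPM in brain and 1.25, 1.00 and 1.74 in liver (2.83 ± 0.28), whereas Fabp1 was at 0 in brain. Mat1a, which makes S-adenosylmethionine in hepatocytes, was at 2121, 1646 and 2087 CPM in liver and at most 3 counts in brain, while Mat2a, the form of other cells, did not pass the test at 85.9, 82.4 and 102 against 65.8, 86.7 and 102 CPM, though it did toward brain under library totals (0.93).

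Pairs of cell machinery included both kinds, those with opposite calls and those with both genes higher in brain. Eef1a2 held 47.1% ± 1.87 of its pair's TPM in brain beside Eef1a1, which was at 589, 678 and 692 CPM in brain and 3639, 3541 and 3696 in liver (-2.47 ± 0.14). Dnm1, the dynamin of synaptic vesicles, held 95.01% ± 1.06 of the TPM of it and its common form in brain and 0.677% ± 0.452 in liver. Snap25 against Snap23 held 99.1% ± 0.153 and 0.211% ± 0.183. The splicing repressors Ptbp2 and Ptbp1 were opposed at 2.03 ± 0.11 and -2.49 ± 0.10. Both genes were higher in brain for Kif5c and Kif5b, Map2 and Map4, Napb and Napa, Elavl4 and Elavl1, Prkar1b and Prkar1a, as for Pfkp and Pfkl. Cdh2, neural cadherin, was the only brain form higher in liver, at 235, 246 and 227 CPM against 106, 118 and 113 (-1.07 ± 0.10), and that call is lost under library totals (-0.23).

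Members of the exclusive sets varied between libraries of their own tissue to unequal degrees. Over the 165 brain-exclusive protein-coding genes at a mean of 100 CPM or more, the highest library exceeded the lowest by a median of 1.41-fold, and over 175 such liver genes by 1.23-fold. The widest in brain was Fat2, a cerebellar cadherin, at 439.6-fold, followed by Unc13c and Syt2 at 192.5, 34.3 and 114.5 CPM and 224, 48.5 and 211 CPM, all lowest in replicate 2. The myelin gene Mobp was at 323, 215 and 705 CPM and highest in replicate 3. In liver the widest were Mup17 at 482.5, 3114 and 159 CPM and Mup15 at 443, 3874 and 282.5 CPM, highest in replicate 2. Cyp4a14, a fatty acid hydroxylase, was at 207, 91.3 and 593 CPM and highest in replicate 3. These genes were singled out after their values were seen.

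Markers of other cell types were read beside these results. Kupffer markers summed to 130 to 177 CPM in liver and 0 to 0.0865 CPM in brain, where all 5 were at the floor. Of 6 microglia markers, 4 were higher in brain and C1qa was higher in liver (-1.10 ± 0.18, a call lost under library totals at -0.26). The shares of all tested genes were 43.9% higher in brain and 34.7% in liver. Microglia markers summed to 98.99 to 159 CPM in brain and 82.3 to 108 in liver. Choroid plexus markers summed to 4.40 to 367 CPM in brain, with the lowest value in replicate 2, and pituitary markers to 0.332 to 8.07 CPM. Erythroid markers summed to 6.49 to 9.68 CPM in brain and 108 to 153 in liver, mostly from Alas2, the first enzyme of haem synthesis in red cell precursors, at 122, 105 and 84.8 CPM. Pancreatic markers summed to 13.4 to 16.8 CPM in liver, nearly all Cela1 (16.4, 16.8 and 13.4 CPM), with the other 5 of 6 at the floor. Adipocyte markers had 0 counts in brain and 0.580 to 0.910 CPM in liver. Lymphocyte markers summed to 5.65 to 14.2 CPM in brain and 6.11 to 12.6 in liver. Their part in the tissue differences was not tested.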

How the data were processed

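Total RNA from brain and liver was sequenced single-end on an Illumina NextSeq 2000 after DNase treatment and ribosomal RNA removal with a stranded kit, per the labels' protocols. The submitters' processing notes name cutadapt, STAR and build mm10, while versions, how reads were counted and whether by strand are not given in the sources used here. The authors deposited 1 table of estimated counts per gene; 5.06% to 5.71% of each library's values held a fraction, as happens where reads are shared between genes, and all were rounded before testing. Gene names and exon lengths came from GENCODE M21 on GRCm38, and microRNA sequences from RefSeq.

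From the counts of the 6 wild-type libraries, edgeR 4.0.16 in R 4.3.3 was used: filterByExpr (minimum count 10, minimum total 15), TMM factors, a robust quasi-likelihood fit by tissue without a replicate block, and Benjamini-Hochberg adjustment at 0.05 over all 18850 genes tested. CPM used TMM-scaled library sizes. TPM were computed over nuclear protein-coding genes and used for ranks and shares within a tissue, which are then set side by side. For genes at no more than 3 counts in every library of a tissue, folds are lower bounds against that floor.

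Genes named are the 15 most abundant per tissue and per exclusive or shared set, the 5 largest called differences per direction, the 2 to 4 most abundant members of each list and any member called against its list, the pairs, the most abundant long non-coding genes and the cell type markers. Members and lists were chosen with earlier results of these data known. The coagulation list had 28 names, of which 27 matched a gene in the table. Alternatives were DESeq2 size factors, upper-quartile factors and library totals in edgeR, DESeq2 1.42.0 on unfiltered counts, no filter, a replicate block, all 12 libraries in 1 fit, other limits for the sets and leaving out each library. Gene lists and the abundance order without brain replicate 2 were added after seeing the data. The fitting procedure was tested on 1 set of simulated data, where small changes were recovered less often than large ones. The share of false calls there was above the nominal threshold, so single calls near it are uncertain. Far fewer genes were changed in the simulation than differed here, so that share need not hold for these data. A few genes that the naming rule selects are not reported here.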

Additional observations from a re-analysis of the deposited data

How the results depend on the processing

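The number of genes that differed was 14817 and ranged from 14218 to 15059 when each library was left out, with 7996 to 8338 higher in brain and 6154 to 6721 higher in liver. Library totals gave 3998 genes higher in liver. Without the filter, over 30776 genes with a count, DESeq2's Wald test called 16066 and edgeR 16400; a fit of all 12 libraries called 15814 of 20141. A replicate block in the model gave 14496 calls, with Malat1 (0.57) and Psmc5 (0.29) among those lost. Its common dispersion, the fitted spread between libraries, was 0.033 against 0.046 without the block. Same-numbered brain and liver libraries deviated together with correlations of 0.043, 0.023 and 0.036 over 16587 genes. These were each library's best match and the only positive ones, but under 0.1. The labels do not say that the numbers mark animals, so they were not taken as pairs, and pairing was not settled. The exclusive sets depended on their limits: with no count allowed in the other tissue they held 909 (brain) and 309 (liver) genes, at 5 CPM or more 961 and 387, and with up to 10 counts allowed the liver set held 914. Leaving out libraries gave 1762 to 1846, 618 to 655, and 2478 to 2737 shared genes; a 1.5-fold bound left 1307 shared genes. Pairs with opposite calls stayed at 25 to 26 without any 1 library. Under library totals the medians of RNA polymerase II, spliceosome and tRNA synthetase genes became 0.48, 0.69 and 0.26. Among shared genes, Actb (0.30), Bsg (0.15), Cox4i1 (0.17), Cox8a (0.63), Ddx5 (0.74), Gapdh (0.27), Glul (0.27), Hsp90ab1 (0.73), Ppia (0.39), Rpl38 (0.087) and Rps29 (0.28) turned toward brain, as did Atp6v1g1 (0.51); of these Cox8a, Ddx5, Hsp90ab1, Ppia and Atp6v1g1 passed there. Atp5b (-0.28), C1qa (-0.26), Cdh2 (-0.23) and Prpf8 (-0.098) lost their calls, and Hspa8 (0.91) and Mat2a (0.93) gained one, as did Cox8a, Ddx5 and Hsp90ab1. With TMM factors Hspa8 and Mat2a did not pass and changed sign without 1 library: Hspa8 to -0.052 without brain replicate 2, -0.023 without brain replicate 3 and -0.085 without liver replicate 1, and Mat2a to -0.050 and -0.080 without the latter pair, with up to 0.23 without liver replicate 3. Cox8a gained a call toward liver without brain replicate 2 (-0.37). Ubb lost its call without brain replicate 2 (0.29), brain replicate 3 (0.33) or liver replicate 1 (0.34). The causes were not tested. Counts near the floor limit what can be said of genes called exclusive.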
